A study of Mus musculus with 2 samples.

Results

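Of 4934 genes that the authors deposited as lying near STAT5 binding regions in mouse CD8 T cells, 513 had a highest peak of 12 signal units or less after IL-2. These are the genes with the weakest IL-2 STAT5 peaks of the table. They were chosen on the deposited Peak Value, the highest peak of a gene over both libraries, which came from the IL-2 library in all 4934 rows. Genes that share a region were merged by the name of the IL-2 region. The 513 genes then rested on 362 distinct regions of 5703, and the remaining 5341 regions were listed only for the other 4421 genes. Of the 362 weak regions, 40 were also listed for a gene with a higher Peak Value. The Peak Value was 9 in 9 of the genes, 10 in 94, 11 in 177 and 12 in 233. Just outside the limit, 281 genes had a value of 13.

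Binding was read by ChIP-seq, which precipitates a protein together with the DNA it holds and sequences that DNA. The cells were effector CD8 T cells of strain C57BL/6 with the OT-I T cell receptor, which recognises the ovalbumin peptide SIINFEKL. In both groups the cells had been transferred into mice, primed there with that peptide plus agonists to the CD134 and CD137 costimulatory receptors, and sorted from spleens after 4 days. In the IL-2 group (1 library) the sorted cells then received IL-2 at 0.5 µg/ml in culture for 1 hour, and in the control group (1 library) they received none. Chromatin was precipitated with an anti-STAT5 antibody, named STAT5A in the protocol. The labels give no number of mice, and all cells carried the same transgenic receptor.

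STAT5 is a transcription factor that lies inactive in the cytoplasm until JAK kinases phosphorylate it. These kinases act at cytokine receptors, such as the IL-2 receptor, which contains the common gamma chain. The phosphorylated protein forms dimers, enters the nucleus and binds palindromic DNA with the core TTCNNNGAA. In CD8 T cells it is known for driving feedback inhibitors, the IL-2 receptor alpha chain, survival proteins and cytotoxic molecules. A ChIP-seq peak can also be seen where a factor is held by other proteins or where chromatin is open, as it commonly is at gene starts.

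All values are heights of the sequencing signal over the regions, in signal units, with no replicate of either library. No test of IL-2 against control was therefore made, and read depth is unknown. The mean height over a gene's regions (AvgPeak in the deposited table) is called the height below. Wilson 95% intervals on shares cover counting of genes or regions only, and neighbouring regions are not independent. In bulk chromatin, binding in fewer cells and weaker binding per cell cannot be told apart.

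Of the 513 genes, 354 had a promoter in the RefSeq table of build GRCm38.p6, which is the mm10 build, with a start within 100 bp of the deposited one. The promoters run from 250 bases before the start to 50 after it. They are shown on the gene's strand, 5′ to 3′, with capitals marking TTCNNNGAA. This palindrome reads the same on both strands. The first set is the stretch around the match in 4 promoters where match and weak region lay close together. Abhd13, which encodes a hydrolase-fold protein, is at chr8:9977582-9977682 on the plus strand, and its match was centred on the region position itself. Agk, a mitochondrial lipid kinase, is at chr6:40325415-40325477 on the plus strand and ends at its start. Hadhb lies at chr5:30155082-30155182 on the plus strand, and it encodes a subunit of the mitochondrial enzyme that degrades long fatty acids. Eaf2, a partner of transcription elongation factors, is at chr16:36874931-36875031 on the minus strand.
Abhd13: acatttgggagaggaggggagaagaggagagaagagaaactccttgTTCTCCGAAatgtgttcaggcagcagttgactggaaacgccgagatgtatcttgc
Agk: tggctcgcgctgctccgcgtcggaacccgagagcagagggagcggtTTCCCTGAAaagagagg
Hadhb: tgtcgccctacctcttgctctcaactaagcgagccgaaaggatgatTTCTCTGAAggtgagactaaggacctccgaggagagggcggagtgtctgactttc
Eaf2: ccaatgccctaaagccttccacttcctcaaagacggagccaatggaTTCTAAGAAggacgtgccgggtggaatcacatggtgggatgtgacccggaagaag

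The heights at these 4 promoters were low throughout. Abhd13 had 11 in the IL-2 library and 5 in the control library. Agk had 12 in the IL-2 library and 4 in the control library. Hadhb had 11 and Eaf2 12 in the IL-2 library, and in the control library they had 4 and 3. The Hadhb stretch is also the promoter of Hadha, the other subunit gene, which is read in the opposite direction. The match of Agk was centred 7 bases from the region position, that of Hadhb 28 bases and that of Eaf2 37 bases.

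A second set shows matches that lay away from the region. Taf1b, a subunit of the factor that recruits RNA polymerase I, is at chr12:24498339-24498439 on the plus strand. Cd96, an inhibitory receptor of T and NK cells, is at chr16:46120273-46120373 on the minus strand. Between match and region there were 139 bases at Taf1b and 163 at Cd96.
Taf1b: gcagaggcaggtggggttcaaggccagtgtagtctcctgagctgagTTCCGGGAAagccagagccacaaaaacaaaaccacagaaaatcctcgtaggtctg
Cd96: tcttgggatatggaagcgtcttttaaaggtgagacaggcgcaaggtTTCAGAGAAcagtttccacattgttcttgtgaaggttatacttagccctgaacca

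Most promoters that held a weak region had no match, as the next 3 stretches show, each taken around the region. Tyw5, a hydroxylase that modifies a tRNA base, is at chr1:57406686-57406786 on the minus strand. Adam17, the protease that sheds TNF and L-selectin, is at chr12:21373678-21373778 on the minus strand. Ewsr1, an RNA-binding protein, is at chr11:5099198-5099298 on the minus strand.
Tyw5: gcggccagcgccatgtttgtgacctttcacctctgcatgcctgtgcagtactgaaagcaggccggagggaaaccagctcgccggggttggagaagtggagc
Adam17: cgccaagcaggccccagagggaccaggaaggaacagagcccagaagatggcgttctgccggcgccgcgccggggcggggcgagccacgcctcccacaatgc
Ewsr1: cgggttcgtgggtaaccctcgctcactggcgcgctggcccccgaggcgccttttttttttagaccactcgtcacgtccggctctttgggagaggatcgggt

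For comparison, stretches are given from genes outside the group, picked among the promoters with a match that held the highest IL-2 regions. A match was thus a condition. Of 33 promoters holding a region whose height could be determined and was above 50, 26 held a match. The distance from match to region is not given for these stretches. Rasgrp1, a Ras activator downstream of the T cell receptor, is at chr2:117342943-117343043 on the minus strand and had a region height of 140 in the IL-2 library and 8 in the control library. Ripk1, a kinase of TNF receptor signalling, is at chr13:34002720-34002820 on the plus strand and had 114 in the IL-2 library and 5 in the control library. Zfp398 at 117 and Mrpl30 at 116 in the IL-2 library ranked between them and are not shown.
Rasgrp1: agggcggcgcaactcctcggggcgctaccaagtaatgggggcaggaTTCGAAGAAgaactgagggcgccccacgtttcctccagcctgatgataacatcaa
Ripk1: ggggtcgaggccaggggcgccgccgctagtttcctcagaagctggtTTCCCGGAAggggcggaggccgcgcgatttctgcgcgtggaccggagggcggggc

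As deposited, the heights of the weak regions were higher with IL-2 than without it. The height in the IL-2 library had a median of 11 over the 513 genes, with an interquartile range of 11 to 12 and a range of 9 to 12. In the control library their heights had a median of 4, an interquartile range of 3 to 5 and a range of 1 to 10. The IL-2 height was above the control height in 513 of 513 genes, and it also was in 4421 of 4421 other genes. All regions of the 513 genes were called in the IL-2 library, and a call there favours a higher height in that library. This count is therefore no measure of a response to IL-2. The IL-2 height minus the control height had a median of 7 in the weakest genes and 17 in the others. The IL-2 height divided by the control height had a median of 3, with an interquartile range of 2.4 to 3.67, against 5 in the other genes, where that range was 3.57 to 7.67. Since the genes were chosen for a low IL-2 height, these differences describe the choice and support nothing.

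**Figure D1:**
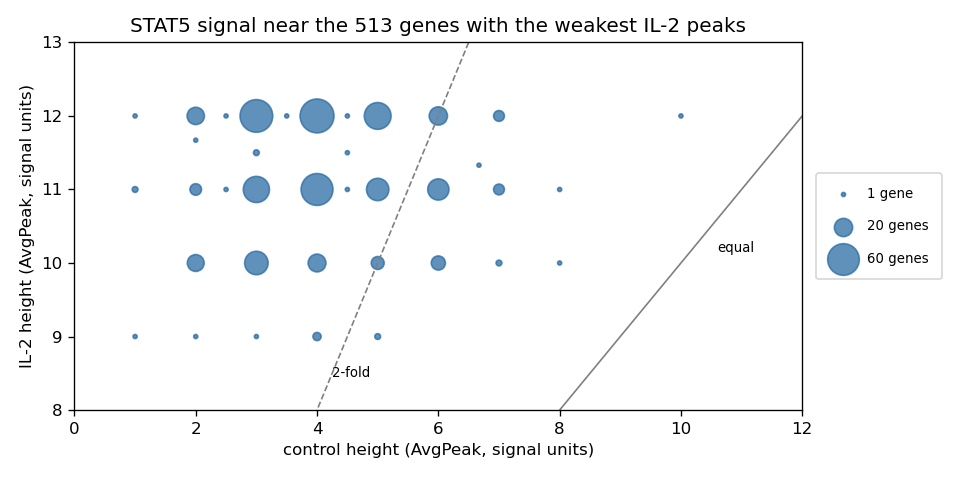
Height in the IL-2 library against height in the control library for the 513 genes with a highest peak of 12 or less, in signal units. Each point is a pair of heights and its area gives the number of genes there. The solid line marks equal heights and the dashed line an IL-2 height of 2 times the control height. Every point lies above the line of equal heights. Tnrc18, at 12 in the IL-2 library and 10 in the control library, and Golm1, at 10 and 8, lie nearest to it.

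Ratios were also computed after adding 5 signal units to both heights, which pulls low regions towards a ratio of 1. The log2 ratio on this scale had a median of 0.91 in the 513 genes, with an interquartile range of 0.74 to 1.00, and of 1.51 in the others, with a range of 1.17 to 2.01. A ratio of at least 2 was reached by 159 of the 513 genes (31%), where 83.8% of all genes reached it. Without the added 5 units, 452 of the 513 genes reached a ratio of 2 (88.1%), where 97.8% of all genes did. With 1 added unit 422 did (82.3%), where 96.7% of all genes did, and with 10 added units 1 did, where 56.4% of all genes did. At 5 added units a ratio of at least 1.5 was reached by 452 of the 513 genes (88.1%), where 98.3% of all genes reached it. No gene of the 513 had a ratio of 0.5 or less, and 0% of all genes had one. The scaling between libraries is not known. When the IL-2 heights were divided by 4.15, which gives both libraries the same median over all genes, the median log2 ratio of all genes was 0.09 in place of 1.42. That of the 513 genes was then -0.19, and that of the others 0.14. On this scale 51 of the 513 genes (9.94%) had an IL-2 height above control, where 58.7% of all genes did. None of the 513 then reached a ratio of 2, where 5.98% of all genes did, and none had a ratio of 0.5 or less, where 0.0203% of all genes had one. Of the regions, 5703 were called in the IL-2 library and 11 in the control library. Equal medians therefore remove a general rise with IL-2 by construction. The low values of the 513 genes on this scale follow from their choice for a low IL-2 height. The direction at the weak regions thus depends on a scaling that is not known, and these values cannot decide it.

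The control height was lower in the weakest genes as well. The Peak Value covers both libraries, so a limit of 12 also bars genes with a higher control peak, although the IL-2 library gave the value in every row. Their control height had a median of 4, against 5 in the other genes, where the interquartile range was 4 to 6. Restricting the others to genes with 1 region left their median at 5. A control height of 3 or less was found in 192 of the 513 genes (37.4%) and in 672 of the 4421 others (15.2%). A control height of 7 or more was found in 19 of the 513 genes (3.70%) and in 454 of the others (10.3%). None of the 513 genes had a region called in the control library, which allows a share of up to 0.585% (3 of 513, the limit for a count of 0 used throughout), and 12 of the 4421 others had one. The 2 distributions overlap widely, and a step of 1 unit is the resolution of the values.

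**Figure D2:**
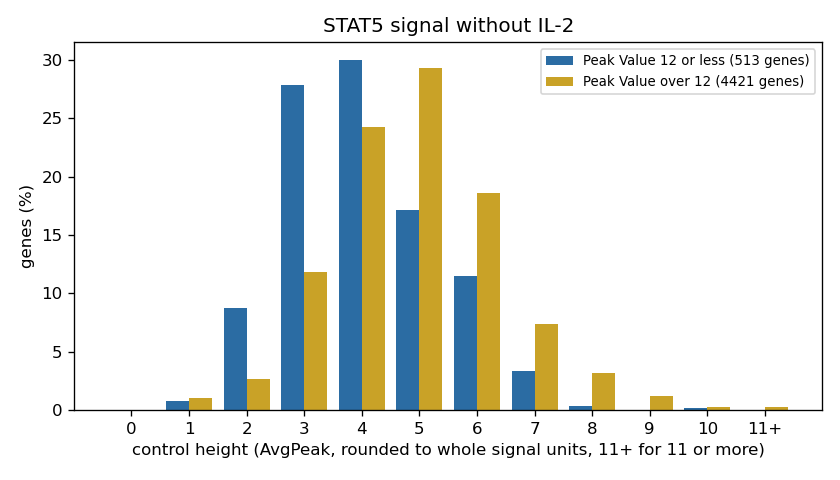
Share of genes at each height in the control library, rounded to whole signal units, for the 513 genes with an IL-2 peak of 12 or less and for the 4421 others. The 513 genes are most often at 4 and 3, and the others most often at 5 and 4.

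Within the weakest genes the control height varied little with the IL-2 height. Median control heights were 4, 3, 4 and 4 at Peak Values of 9, 10, 11 and 12. Over the 340 weak regions whose heights the gene means determine, Spearman's rho between the IL-2 and control heights was 0.064 and Pearson's r was 0.076, over an IL-2 range of only 9 to 12. Over all 2483 determined regions rho was 0.26 and r was 0.21. The points share both libraries and are a description. In bins of IL-2 height over these 2483 regions, the mean control height was 4.01 at 9 to 12, 4.31 at 13 to 15, 4.49 at 16 to 20, 5.01 at 21 to 30, 4.96 at 31 to 50, 5.34 at 51 to 100 and 5.34 above 100. In the control library the weak regions had a median height of 4 near starts, 4 inside genes and 3 outside genes.

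The position of the regions was not used in the choice, and weak regions lay nearer to gene starts than the rest. Of the 362 weak regions, 196 were at most 1 kb from a listed gene's start (54.1%, interval 49.0 to 59.2%), against 1373 of the 5341 others (25.7%, interval 24.6 to 26.9%). The median distance to the nearest listed start was 763.5 bp for the weak regions, with an interquartile range of 243 to 6932 bp, and 7069 bp for the others, with a range of 921 to 31397 bp. Within 250 bp of a start lay 94 weak regions (26.0%) and 634 others (11.9%). Elsewhere inside a gene lay 117 weak regions (32.3%), against 55.1% of the others. Outside genes lay 49 (13.5%), against 19.2% of the others. Starts on both strands lay within 1 kb of 32 weak regions (8.84%) and of 197 others (3.69%). Of the weak regions near a start, 118 of 196 lay on its transcribed side (60.2%), against 773 of 1373 others (56.3%).

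Part of this difference moved with how regions are assigned to genes. A gene enters the group only if all its regions are weak, and 499 of the 513 genes had a single region (97.3%), against 2788 of the 4421 others (63.1%). Among regions of genes with 1 region, 166 of 297 weak regions lay within 1 kb of a start (55.9%, interval 50.2 to 61.4%), against 669 of 1589 others (42.1%, interval 39.7 to 44.5%). Weak regions were also more often listed for 2 or more genes, 148 of 362 (40.9%) against 1566 of 5341 (29.3%). Among regions that were the only region of a single gene, the shares near a start were 90 of 194 (46.4%) and 301 of 1029 (29.3%). The difference thus had the same direction in each subset and was smaller among genes with 1 region.

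Among the regions with determined heights, the share near a start fell along the whole range of IL-2 heights. It was 54.4% at 9 to 12 (n = 371, interval 49.4 to 59.4%), 53.0% at 13 to 15 (n = 530), 42.7% at 16 to 20 (n = 506), 37.0% at 21 to 30 (n = 467), 35.4% at 31 to 50 (n = 336), 34.9% at 51 to 100 (n = 232) and 26.8% above 100 (n = 41, interval 15.7 to 41.9%). The lowest bin includes 31 regions of genes outside the group, whose other regions were higher. Heights were determined for 93.9% of the weak regions but for only 40.1% of the others, so the higher bins cover a part of their regions. In that part 41.7% of the others lay near a start, against 25.7% of all others. The limit of 12 marked no step: at a Peak Value of 12, 89 of 176 regions were near a start (50.6%), and at 13, 110 of 204 (53.9%). The median control height was 4 at both values, and the median ratio of the heights was 3 at 12 and 3.25 at 13.

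**Figure D3:**
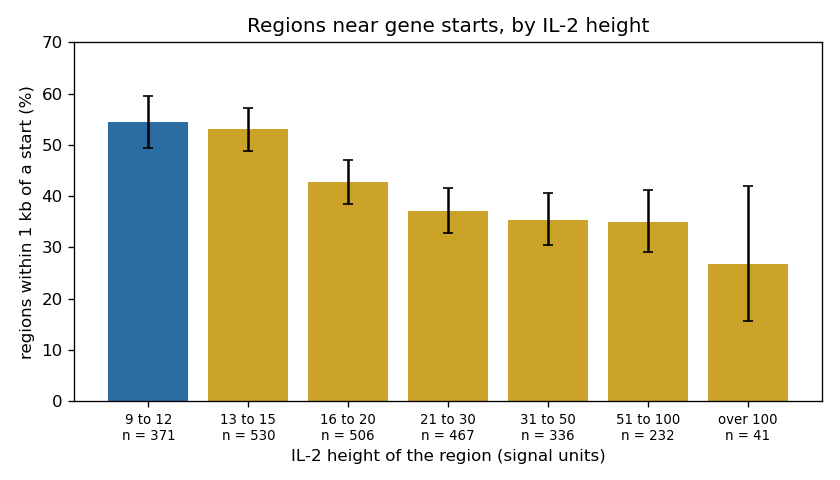
Share of regions within 1 kb of a listed gene start by IL-2 height of the region, with Wilson 95% intervals, over the 2483 regions whose heights the gene means determine. The blue bar holds regions of 12 or less, 31 of them from genes outside the group. The share is 54.4% in the lowest bin and 26.8% in the highest.

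The 14 genes with more than 1 region had several weak ones, and 3 of them were picked after their values were seen. Rapgef1, an exchange factor that activates Rap1 and so integrin adhesion, had 3 regions at 899, 4707 and 8376 bp from its start, with a mean height of 11.33 in the IL-2 library and 6.67 in the control library. Rftn1, a lipid raft protein, also had 3, all over 31 kb inside the gene, with 11.67 in the IL-2 library and 2 in the control library. Map3k8, the kinase also called TPL2, had 2 regions at 1753 and 19049 bp, with 12 in the IL-2 library and 3.5 in the control library.

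The STAT core TTCNNNGAA was searched in the promoters, since no genome was used here to read the regions themselves. Among promoters with a region within 1 kb of the start, 15 of 160 in the weakest genes held it (9.38%, interval 5.76 to 14.9%), against 233 of 1118 in the others (20.8%, interval 18.6 to 23.3%). All 32851 promoters of the table held it in 8.30%. Where the region itself lay inside the promoter, 9 of 43 weakest genes had a match (20.9%, interval 11.4 to 35.2%), against 144 of 274 others (52.6%, interval 46.6 to 58.4%). In genes with a promoter in the table but no region within 1 kb, the shares were 5 of 194 (2.58%) and 105 of 1814 (5.79%).

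Among promoters whose region had a determined height, the share of matches climbed with the height of the region inside the promoter. It was 9 of 45 at heights of 9 to 12 (20%, interval 10.9 to 33.8%), 38 of 102 at 13 to 20 (37.3%, interval 28.5 to 46.9%), 48 of 67 at 21 to 50 (71.6%, interval 59.9 to 81%) and 26 of 33 above 50 (78.8%, interval 62.2 to 89.3%). The median GC content of these promoters moved with it, at 62.3%, 59.0%, 58.0% and 56.7%, and its part in the result was not tested. Fewer promoters hold all 50 bases on either side of the region position. A match centred there was found in 6 of 36 at 9 to 12 (16.7%, interval 7.87 to 31.9%) and in 18 of 64 at 13 to 20 (28.1%). It was found in 26 of 49 at 21 to 50 (53.1%) and in 14 of 22 above 50 (63.6%, interval 43.0 to 80.3%). The same window at the middle of all promoters held one in 3.06%. Some promoters of neighbouring genes share a region and overlap. The lowest bin also holds promoters of genes outside the group.

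**Figure D4:**
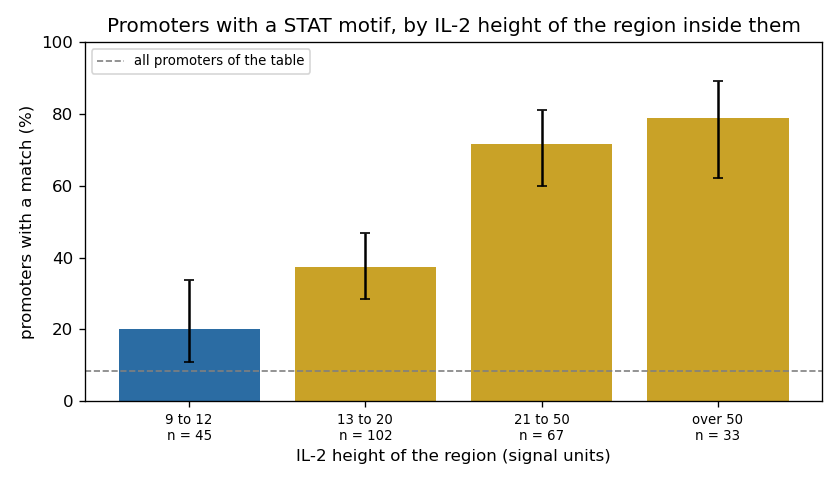
Share of promoters that hold TTCNNNGAA, by IL-2 height of the region lying inside the promoter, with Wilson 95% intervals and the number of promoters under each bar. The dashed line is the share among all promoters of the RefSeq table, 8.30%. The share is 20% for regions of 9 to 12, drawn in blue, and 78.8% above 50. Only promoters whose region height the gene means determine are shown, and the blue bar includes some of genes outside the group.

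Of the 15 matching promoters of the weakest genes, 14 held the core once and that of Ndufa8 held it 2 times. In 6 of the 15 the match centre lay within 50 bases of the region position, at Abhd13, Agk, Hadha, Hadhb, Wdr11 and Eaf2. These include both stretches of the Hadha and Hadhb pair, which are a single region. In the other 9 it lay farther off, from 139 bases at Ttc26 and Taf1b to 819 bases at H2-M3.

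The ETS core CCGGAAGT, a common element of promoters of widely expressed genes, was searched on both strands for comparison. It stood in 16 of 160 promoters of the weakest genes with a region within 1 kb (10%) and in 97 of 1118 of the others (8.68%), against 3.89% of all promoters. It overlapped TTCNNNGAA in 0 of the 160. The same 160 promoters had a median of 24 CpG dinucleotides and a median GC content of 62.5%, against 21 and 60.3% in the others and 7 and 52.7% in all promoters. A match is a description of these letters and not a binding site.

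By function, no gene of a list of known STAT5 targets of IL-2 was in the group. Of 30 such genes 28 were in the table, with a median Peak Value of 109.5, and 0 of them were among the weakest, which allows a share of up to 10.7%. Cytokine and cytokine receptor signalling genes were also at 0 of 21, which allows up to 14.3%. Both limits lie above the 10.4% of all genes, so neither count sets these genes apart. Over 9 lists of T cell and cytokine genes, 11 of 206 listed genes were among the weakest (5.34%, interval 3.01 to 9.31%), where the group makes up 10.4% of all genes. The lists hold well-studied genes and were chosen with earlier results of these data known, and the group was chosen for low IL-2 peaks. These counts therefore describe the choice, and no test of them was made.

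The 11 genes were spread over 7 of the lists. Among transcription factors, 3 of 48 were in the group (6.25%), where all genes gave 10.4%. Myb, which holds progenitor cells in a proliferative state, had a height of 10 in the IL-2 library and 2 in the control library, 488 bp before its start. Fos, a partner in the AP-1 dimer, and Relb, a factor of the alternative NF-kappaB pathway, each had 11 in the IL-2 library and 5 in the control library, both within 1 kb of the start. All 3 factor genes thus held their weak region at the start.

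In naive, memory and homing genes 2 of 26 were in the group (7.69%), where all genes gave 10.4%. Tcf7, which encodes the memory and stem-like factor TCF1, had 11 in the IL-2 library and 7 in the control library. Its region lay 2717 bp inside the gene and was among the 9 with the lowest ratio of the group. Itgb1, the beta-1 integrin chain, had 10 in the IL-2 library and 4 in the control library.

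Cytotoxic genes had 2 of 15 in the group (13.3%), where all genes gave 10.4%. Stx11, a syntaxin needed for granule release, had 10 in the IL-2 library and 4 in the control library, at 739 bp from its start. Klrg1, an inhibitory receptor of terminal effector cells, had 12 in the IL-2 library and 4 in the control library, 6319 bp before its start. Neither gene had another region in the table.

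The other T cell lists had 1 gene each. Cd96 had 11 in the IL-2 library and 2 in the control library. Cxcr4, the receptor for the homing chemokine CXCL12, had 11 in the IL-2 library and 4 in the control library. Dgkz, which ends diacylglycerol signals of the T cell receptor, had 12 in the IL-2 library and 5 in the control library. Irgm1, an interferon-induced GTPase, had 12 in the IL-2 library and 3 in the control library. Cd96, Cxcr4 and Irgm1 had the region within 1 kb of the start, and Dgkz had it 14587 bp inside the gene.

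Of the survival list 2 of 15 genes were in the group and of the cell cycle list 1 of 11, where all genes gave 10.4%. Birc2, an inhibitor of apoptosis, had 11 in the IL-2 library and 3 in the control library, and Casp1, the inflammasome protease, had 11 in the IL-2 library and 4 in the control library. The region listed for Casp1 lay 10411 bp from its start and 68 bp from that of Casp4. Aurkb, the mitotic kinase, had a mean of 12 in the IL-2 library and 3 in the control library over 2 regions. Lig4, the ligase of end joining, had 11 in the IL-2 library and 5 in the control library. The region listed for Lig4 lay 1309 bp before its start and 85 bp before that of Abhd13. Glycolysis genes had 0 of 7, amino acid transport and mTOR genes 0 of 5 and housekeeping genes 0 of 5. Those zeros allow up to 42.9%, 60% and 60%, so these lists are too short to place. The table listed 1 of 8 B cell markers, 2 of 8 myeloid markers and 0 of 5 erythroid markers, and none was in the group. Since it holds binding and not expression, it is no check of cell identity.

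Families of the basic cell machinery, grouped by their symbols, were present in the group about as often as genes in general. Over 9 families of translation, respiration, protein turnover, splicing and transcription, 17 of 138 listed genes were in it (12.3%, interval 7.84 to 18.8%), where all genes gave 10.4%. RNA polymerase subunits had 0 of 7 and mediator subunits 0 of 8. Together 132 of the 513 genes fell in any list or family. The same share over all genes is not given here, so this count shows only how much of the group they cover.

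Translation was represented by initiation factors, ribosomal proteins and a tRNA synthetase. Eif2s2, a subunit of the factor that brings the initiator tRNA, had 10 in the IL-2 library and 3 in the control library. Eif3a, the scaffold of the initiation factor eIF3, had 11 in the IL-2 library and 7 in the control library. Eif2b4, of the exchange factor for eIF2, had 12 in the IL-2 library and 5 in the control library. These were 3 of 14 factor genes (21.4%), where all genes gave 10.4%, and all 3 held the region within 1 kb of the start.

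Rpl9, a cytosolic ribosomal protein gene, had 11 in the IL-2 library and 5 in the control library. Of 16 mitochondrial ribosomal protein genes, Mrpl16 had 12 in the IL-2 library and 6 in the control library, and Mrpl18 had 12 in the IL-2 library and 3 in the control library. Mars2, the mitochondrial methionyl tRNA synthetase, had 11 in the IL-2 library and 5 in the control library. In all of these the region lay within 1 kb of the start.

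Respiratory genes had 4 of 22 in the group (18.2%), a small count, where all genes gave 10.4%. Ndufa8, of complex I, had 10 in the IL-2 library and 5 in the control library. Cox17, a copper chaperone of cytochrome oxidase, had 12 in the IL-2 library and 2 in the control library. Atp5l and Atp5sl, named for the ATP synthase, had 11 and 12 in the IL-2 library, and both had 5 in the control library. Atp5l alone of the 4 held its region farther than 1 kb from the start.

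Splicing factors also had 4 of 22 (18.2%), where all genes gave 10.4%. Sf3a2 had 10 in the IL-2 library and 3 in the control library, and Sf3b2, like it a subunit of the U2 particle, had 11 in the IL-2 library and 4 in the control library. The region listed for Sf3b2 lay 21887 bp from its start and 449 bp before that of Pacs1. Hnrnpl, an RNA-binding regulator of CD45 splicing, had 12 in the IL-2 library and 4 in the control library. Srsf1, a serine and arginine rich splicing factor, had 12 in the IL-2 library and 7 in the control library. Only Tnrc18, Golm1 and Clk3 had a control height above 7, and 16 genes, Srsf1 among them, were at 7. Psma6, of the proteasome core, had 12 in the IL-2 library and 7 in the control library.

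Chromatin genes of the group included 4 of 18 lysine methylases and demethylases (22.2%), a small count, where all genes gave 10.4%. Setd8, which methylates histone H4, had 10 in the IL-2 library and 4 in the control library. Kdm2a, a demethylase bound to CpG islands, had 11 in the IL-2 library and 5 in the control library, and Suv39h2, which methylates histone H3 in heterochromatin, had 11 in the IL-2 library and 4 in the control library. Setd5 had a mean of 11 in the IL-2 library and 3 in the control library over 2 regions. Sirt4, a mitochondrial sirtuin, had 12 in the IL-2 library and 3 in the control library, out of 10 acetylation genes. Hist2h2ab, Hist2h2ac and Hist2h2be, out of 40 histone genes, shared a single region with 11 in the IL-2 library and 5 in the control library.

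The remaining families gave shares close to or below the 10.4% of all genes. Zinc finger genes had 10 of 95, with Zfp141 and Zscan22 at 10 in the IL-2 library and 2 in the control library. Solute carriers had 6 of 70, ubiquitin enzymes 5 of 74, Tmem genes 2 of 48, Rab GTPases 1 of 20 (Rab33b), DEAD and DEAH box helicases 1 of 17 (Ddx39) and vacuolar ATPase subunits 0 of 5, which allows up to 60%. Slc1a4, a carrier of neutral amino acids, had 11 in the IL-2 library and 1 in the control library. Genes with Riken or Gm-numbered symbols made up 57 of 581 (9.81%). Of the weakest genes that matched RefSeq, 444 of 499 were protein coding (89.0%), against 3743 of 4300 others (87.0%).

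Of 78 listed genes with microRNA symbols 7 were in the group (8.97%, where all genes gave 10.4%), 6 microRNA genes and the host gene Mir22hg. Their 8 mature microRNAs had 8 different seeds. The 3 shown belong to the microRNA genes whose region had the highest control height of these, with seeds (bases 2 to 8) in capitals. Mir22 is on chromosome 11 with its host gene, and Mir207 is on chromosome 4.
mmu-miR-22-3p: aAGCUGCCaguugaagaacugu
mmu-miR-22-5p: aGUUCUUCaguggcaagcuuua
mmu-miR-207: gCUUCUCCuggcucuccucccuc

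The region listed for Mir22 and Mir22hg, and also for Wdr81 and Tlcd2, had 11 in the IL-2 library and 6 in the control library. It lay 243 bp before the start of the host gene and 2420 bp before the microRNA. The region at Mir207 had 12 in the IL-2 library and 6 in the control library, 149 bp before it, and was shared with Gm6297 and with Dnaja1, a cochaperone gene. The small nucleolar RNA genes Snord13 and Snora20 were 2 of 45 in the table, with 11 and 12 in the IL-2 library and 4 and 3 in the control library. The region listed for Snora20 lay 6169 bp before it and 223 bp from the start of Tcp1.

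The lowest Peak Value of the table, 9, was that of genes at 6 regions. Helz, an RNA helicase, had 9 in the IL-2 library and 1 in the control library, 120477 bp inside the gene. The region near 1110034G24Rik had 9 in the IL-2 library and 2 in the control library, and that in Zcwpw2 had 9 in the IL-2 library and 3 in the control library. Cops3, a subunit of the COP9 signalosome, shared a region with Nt5m, and Ehhadh, a peroxisomal enzyme of fatty acid oxidation, shared another with 1300002E11Rik, both with 9 in the IL-2 library and 4 in the control library. Arl4d, a small GTPase, shared the sixth with Rnu2-10, with 9 in the IL-2 library and 5 in the control library. A Peak Value of 10 was shared by 63 regions. The first of these by symbol, with 10 in the IL-2 library, were 1700012I11Rik with 4 in the control library and 2210408F21Rik, 3300002I08Rik and 4930554C24Rik with 3. Even at 9 units, the control height thus ranged from 1 to 5.

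The regions with the lowest ratio had control heights of 6 to 10. Tnrc18 had 12 in the IL-2 library and 10 in the control library (log2 ratio 0.18), the highest control height of the group. Golm1, a Golgi membrane protein, had 10 in the IL-2 library and 8 in the control library (0.21), and Clk3, a kinase of splicing factors, had 11 in the IL-2 library and 8 in the control library (0.30). Tyw5, shown above without a match, shared its region with 9430016H08Rik and had 10 in the IL-2 library and 7 in the control library (0.32).

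A set of 5 regions were at 11 in the IL-2 library and 7 in the control library (log2 ratio 0.42). They were those of Tcf7 with A630014C17Rik, of Nop2 with Chd4, of Eif3a, of Kcnh2 and of Syf2. Nop2 is an rRNA methyltransferase, Chd4 a chromatin remodeller, Kcnh2 a potassium channel and Syf2 a splicing protein. The region at Nop2 lay 405 bp from its start and 36125 bp from that of Chd4, and that listed for Syf2 lay nearer to D4Wsu53e. The region shared by Bfsp2 and 5830418P13Rik, with 10 in the IL-2 library and 6 in the control library (0.45), was 1 of 7 tied at these heights and is named by symbol order.

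At the other end, the ratio was highest where the control height was 1 or 2. Bsdc1 had 12 in the IL-2 library and 1 in the control library (log2 ratio 1.5), 399 bp before its start. Chmp4b, of the membrane-cutting ESCRT complex, and Slc1a4 had 11 in the IL-2 library and 1 in the control library (1.42). Atp10b, a lipid flippase, and Bbs9, of a complex that serves the primary cilium, had 12 in the IL-2 library and 2 in the control library (1.28), as did 17 regions in all, of which these are the first by symbol. A difference of 1 unit in the control height moves these ratios most, so their order is not firm.

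Some further members with a known role in lymphocytes were picked after their values were seen. Icam2, an adhesion molecule, had 10 in the IL-2 library and 2 in the control library, and Coro1a, an actin regulator needed for naive T cell survival, had 10 in the IL-2 library and 4 in the control library. Stim1, the calcium sensor of the endoplasmic reticulum, had 12 in the IL-2 library and 4 in the control library. Notch2, a receptor with a role in effector differentiation, had 11 in the IL-2 library and 3 in the control library, 2 bp from its start. The class I gene H2-D1 had 12 in the IL-2 library and 5 in the control library, and it belongs to a family of near-identical genes, so its reads are uncertain. In each of these the IL-2 height exceeded the control height by 6 to 8 units, close to the median difference of 7 in the group.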

How the data were processed

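The IL-2 group and the control group had 1 library each, so no value has a replicate check and no test was made. The submitters' processing notes name BWA and mm10. The peak caller, scaling and depth are unknown here, since no label or header names them. The authors deposited a gene table with peak heights in signal units, none below 0.

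From it, genes with a Peak Value of 12 or less were taken and merged by IL-2 region name. Region positions came from gene start and distance, and were the same from every gene for all 5714 regions, 5703 called in the IL-2 library and 11 in the control library. Single-region heights were solved from gene means where these determine them. Ratios used a pseudocount of 5 and a 2-fold rule. Wilson intervals have a level of 95%. Gene identifiers matched RefSeq (GRCm38.p6) in 4799 of 4934 genes. Motifs were searched in promoters, in Python 3.11.15 with pandas 2.3.3, numpy 2.4.6, scipy 1.17.1 and statsmodels 0.14.6. Figures used matplotlib 3.10.9.

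Members, the 18 gene lists and the 22 symbol families were chosen with earlier results of these data known. Named genes were the 10 distinct member regions with the lowest Peak Value, the 10 with the lowest and 5 with the highest ratio, the 5 with the highest control height, every member of the T cell, IL-2 and interferon lists, and up to 4 members of lowest Peak Value from other lists and families, with ties broken by symbol. Some genes that the rule took are left out of the text. Genes outside this rule are named as having been chosen after their values were seen, because their promoter held a match or is shown, because their microRNA is shown, or because they share a named region. Alternatives were other pseudocounts, fold rules, limits, distances and scalings. Windows of 200 and 100 bases around the regions were not run, since no genome was used here.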

Additional observations from a re-analysis of the deposited data

How the results depend on the processing

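Directions and counts of the ratio rested on the pseudocount and on the scaling. The median log2 ratio of the 513 genes was 0.91 with a pseudocount of 5, 1.38 with 1, 0.62 with 10 and 1.58 with none, and it was 0.91 with Peak Value in place of the mean IL-2 height. With both libraries at the same median it reversed to -0.19, and also to -0.19 with 1 row per region. That sign follows from the scaling and from the choice of genes with low IL-2 heights. Genes with a ratio of at least 2 numbered 159 with a pseudocount of 5, 422 with 1, 1 with 10, 452 with none and 0 at equal medians, and 452 passed 1.5-fold. The share of weak regions near a start was 54.1% at 1 kb, 70.4% at 5 kb, 40.1% at 0.5 kb and 44.4% among regions listed for 1 gene. It was 57.2% and 51.7% for Peak Values of up to 11 and up to 15, and above that of the other regions in each case. The share of promoters with TTCNNNGAA was 9.38% in the group and 20.9% where the region lay inside the promoter. List memberships numbered 16 in the group, 12 up to a Peak Value of 11 and 39 up to 15. These limits took in 362, 187 and 965 regions, so the counts differ with group size and are not shares. The median control height was 4 with 1 row per region too. Chosen after seeing the data were the ratio without a pseudocount, equal medians with 1 row per region, regions inside the promoter, 1 promoter per region (9.22%), genes with 1 region (55.9%) and list counts at other limits. No paired analysis was possible because there was only 1 library in a group. Depth is unknown, so no height difference was set against counting error.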
